A study of Mus musculus with 36 samples.

Results

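The 9 genes described here encode proteins of the BCL2 family and were taken by symbol from the deposited table of 53299 genes: Bcl2, Bcl2l1 and Mcl1, which protect cells, Bax and Bak1, which kill them, and Bcl2l11, Bid, Bbc3 and Pmaip1, which tip the balance between the other groups. All 9 were among the 12464 genes that passed the filter on low counts. Messenger RNA was measured in conventional dendritic cells of the kinds labelled FLT3LcDC1 and FLT3LcDC2 (cDC1 and cDC2 below), obtained from mouse bone marrow with FLT3 ligand, a growth factor that drives dendritic cell formation. The groups used were cDC1 left untreated (3 libraries), given LPS (3), given PGPC (3) or given LPS with PGPC (3), and cDC2 left untreated (3), given LPS (3), given PGPC (2) or given LPS with PGPC (3), 23 libraries in all. LPS, a lipid of the outer membrane of bacteria, acts through the receptor TLR4, and PGPC is an oxidized phospholipid that, after LPS, is used to bring dendritic cells into a state called hyperactive, in which they release interleukin-1 while staying alive. The labels name neither the dose, the time of exposure, the sorting step, nor the strain, sex or age of the mice, and the libraries with alum and cDC2 given PGPC replicate 6 (3805 counts) were left out. The series calls the replicates biological, and replicate numbers 1, 2 and 3 are those of cDC1 and 4, 5 and 6 those of cDC2.

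The mitochondrial pathway of apoptosis is decided at the outer membrane of the mitochondrion. BCL2, BCL-XL (the product of Bcl2l1) and MCL1 hold BAX and BAK in check, BH3-only proteins such as BIM (Bcl2l11), BID, PUMA (Bbc3) and NOXA (Pmaip1) bind the protectors or the effectors, and free BAX or BAK opens the membrane, which releases cytochrome c and starts the caspases. Dendritic cells are known to depend on this balance for their life span, and Toll-like receptor signals are known to change it.

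LPS raised Bcl2l1, Bcl2l11 and Pmaip1 in cDC1, a protector and a pair of BH3-only genes together, by 9.79-, 4.53- and 7.87-fold. In cDC2, LPS raised Pmaip1 by 5.39-fold, and Bcl2l1 stayed near 60 CPM (library-scaled counts, with TMM factors) with and without it. The response of Bcl2l1 to LPS differed between the cell kinds, by -3.35 ± 0.58 on the log2 scale for cDC2 minus cDC1 (edgeR, adjusted p = 0.00533). When PGPC was given with LPS, Bcl2l1 in cDC1 was 3.91-fold lower than with LPS alone (adjusted p = 0.0107, and 0.118 without cDC1 given LPS replicate 1). Bcl2l1, Bcl2l11 and Pmaip1 all stayed above their untreated levels with both agents (edgeR, adjusted p = 0.0317, 0.00399 and 0.000102). That call for Bcl2l1 was lost without some single libraries. Mcl1, Bax and Bak1 passed the threshold in none of the 17 comparisons. Values after ± are standard errors for log2 differences and standard deviations for levels, a gene is said to rise or fall only at an adjusted p under 0.05 over all tested genes, and intervals are 95% intervals of the log2 difference.

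**Figure D1:**
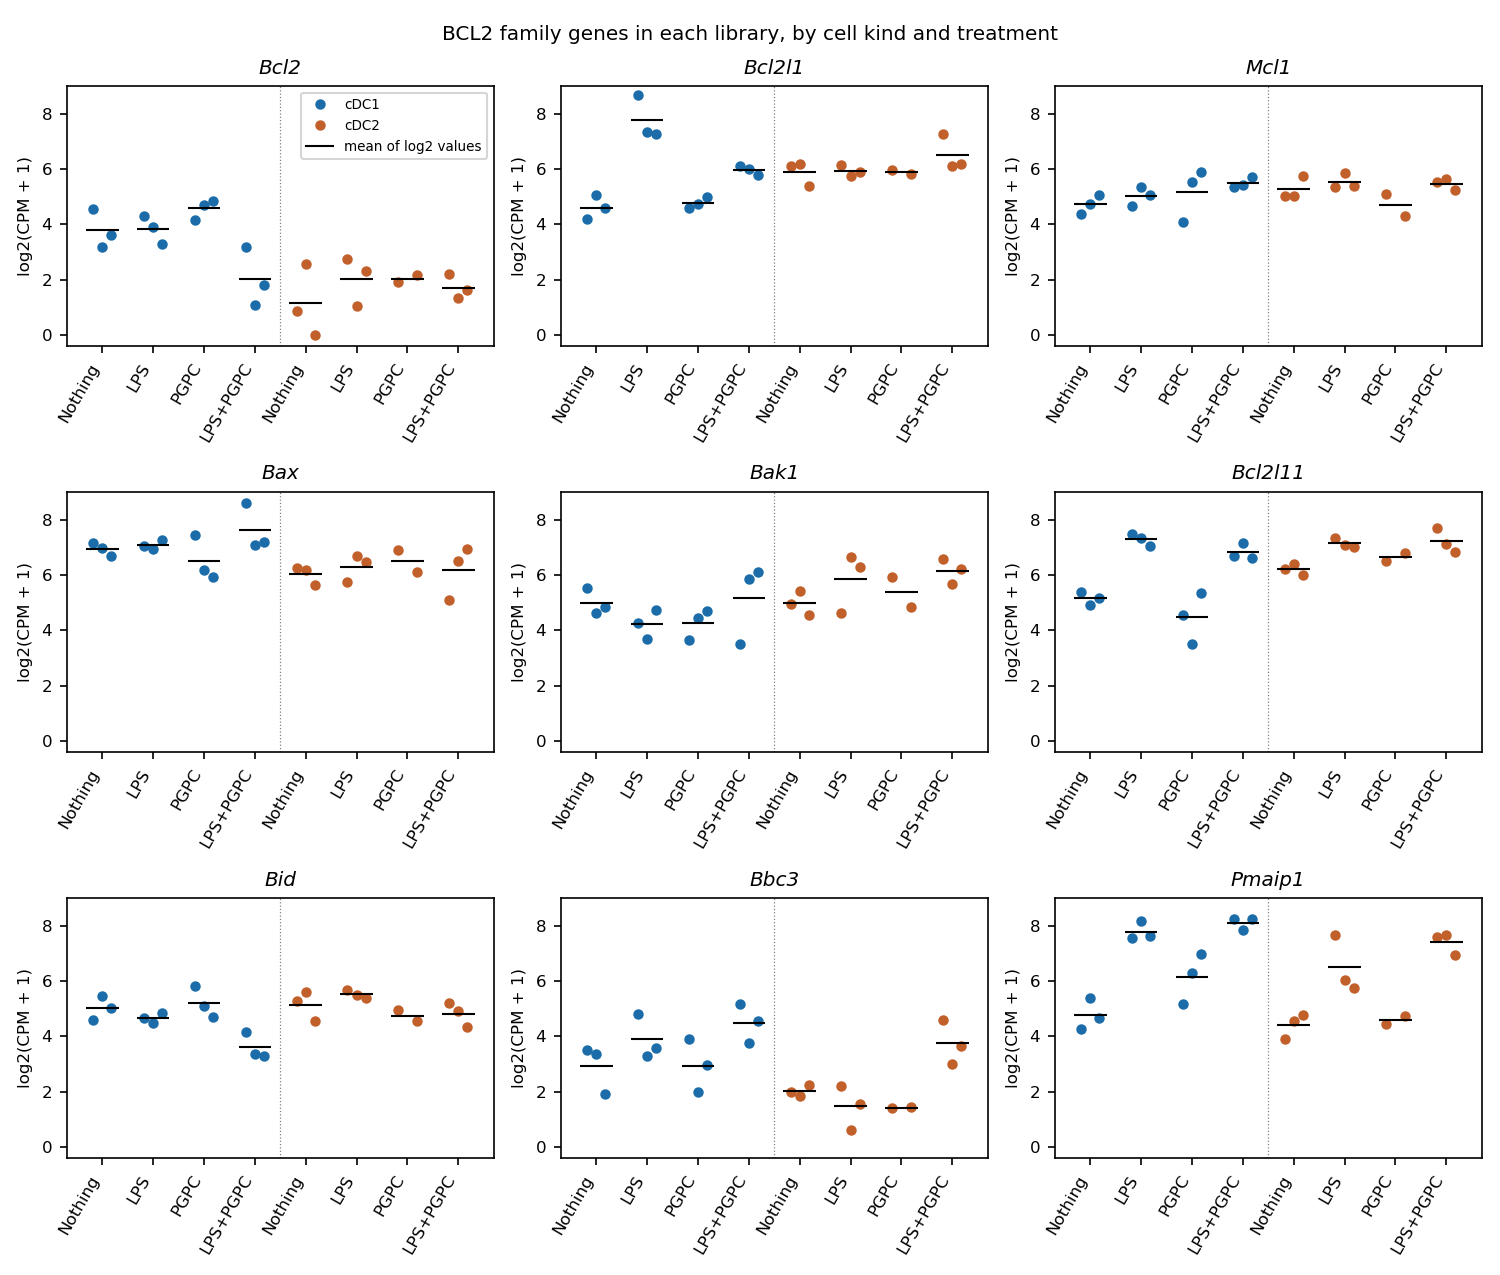
Level of each of the 9 genes in each library, as log2(CPM + 1) on a linear axis, for 4 treatments of cDC1 (blue) and cDC2 (orange). Points are libraries and black bars the mean of the log2 values. Bcl2l1 is highest in cDC1 given LPS, where the 3 libraries lie above those of every other cDC1 group, and Pmaip1 is high in the LPS groups of both kinds of cell.

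Total counts of the 23 libraries ran from 243886 to 16601013, so that 3 counts stood for 11.2 CPM in untreated cDC2 replicate 6 and for 0.119 CPM in cDC1 given PGPC replicate 1. Within groups, Spearman correlations of log2 CPM over genes ran from 0.824 to 0.961. The share of counts on rows that collect ribosomal RNA reads was 53.8% ± 16.4 in untreated cDC1 and 22.0% ± 6.92 in cDC1 given LPS, and it was lowest in replicate 1 of each of the 3 treated cDC1 groups (14% with LPS, 14.3% with PGPC and 7.74% with both). In cDC2 it was 32.7% ± 4.47 untreated and 56.6% ± 6.17 with PGPC, against 27.8% ± 11.7 in cDC1 given PGPC. The summed level of 9 cDC1 markers was 1092 to 1817 CPM in untreated cDC1 and 161 to 201 CPM in untreated cDC2, and that of 9 cDC2 markers was 413 to 680 and 1066 to 1630 CPM. In cDC1 given LPS the cDC1 markers summed to 433 to 630 CPM and the cDC2 markers to 993 to 1249 CPM, the latter overlapping untreated cDC2, and in cDC2 given LPS they summed to 102 to 257 and 1232 to 4593 CPM. The defining receptor of cDC1, Xcr1, was nearly absent in untreated cDC1 (0 to 0.380 CPM), and of the cDC2 markers Cd209a, Clec4a4 and Mgl2 were each under 1 CPM in every library of untreated cDC2 while Irf4 was lower there than in cDC1 (2.61 ± 2.72 and 24.9 ± 10.7 CPM). Markers of other cells differed too. The 10 plasmacytoid dendritic cell markers summed to 604 to 758 CPM in untreated cDC1, 56.1 to 120 CPM in untreated cDC2, 251 to 426 CPM in cDC1 given LPS and 284 to 644 CPM in cDC2 given LPS. The 10 monocyte or macrophage markers summed to 814 to 1105, 2215 to 3052, 396 to 937 and 1235 to 3889 CPM in the same groups, and 9 granulocyte markers to 47.2 to 199, 0 to 1.61, 0 to 6.96 and 1.54 to 3.91 CPM. Among the plasmacytoid markers, mean Bst2 went from 29.3 CPM in untreated cDC2 to 330 CPM in cDC2 given LPS. Spib went from 8.61 to 42.9 CPM and Runx2 from 42.9 to 89.3 CPM. Siglech, Ly6d and Klk1 had no counts in cDC2 given LPS, and mean Ccr9 and Cox6a2 were 0.710 and 0.719 CPM there. In cDC1 given PGPC, granulocyte markers reached 259 to 1162 CPM and 6 mast cell or basophil markers 50.5 to 77.8 CPM (1.27 to 2.88 CPM untreated). The part of these cells, of the markers of the kinds themselves and of the ribosomal RNA share in the results below was not tested, and in bulk RNA fewer cells of a type and less RNA per cell cannot be told apart.

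Levels of different genes can be compared only per length, and per kilobase of exon Bax had the highest mean of the 9 in untreated cells, with 77.8 ± 11.9 CPM per kb in cDC1 and 41.2 ± 9.07 in cDC2. Bcl2 had the lowest, with 1.51 ± 0.815 and 0.208 ± 0.287 CPM per kb. Among the protectors, untreated cDC1 held more Mcl1 (7.59 ± 1.88 CPM per kb) than Bcl2, with Bcl2l1 between them at 5.25 ± 1.65. After LPS the order in cDC1 changed, with Bcl2l1 at 52.2 ± 31.1 CPM per kb against 9.36 ± 2.23 for Mcl1. Pmaip1 in the same libraries stood at 81.7 ± 19.7 CPM per kb, beside 86.6 ± 10.2 for Bax and 19.5 ± 2.96 for Bcl2l11. These orders are descriptions of levels per exon length and were not tested.

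**Figure D2:**
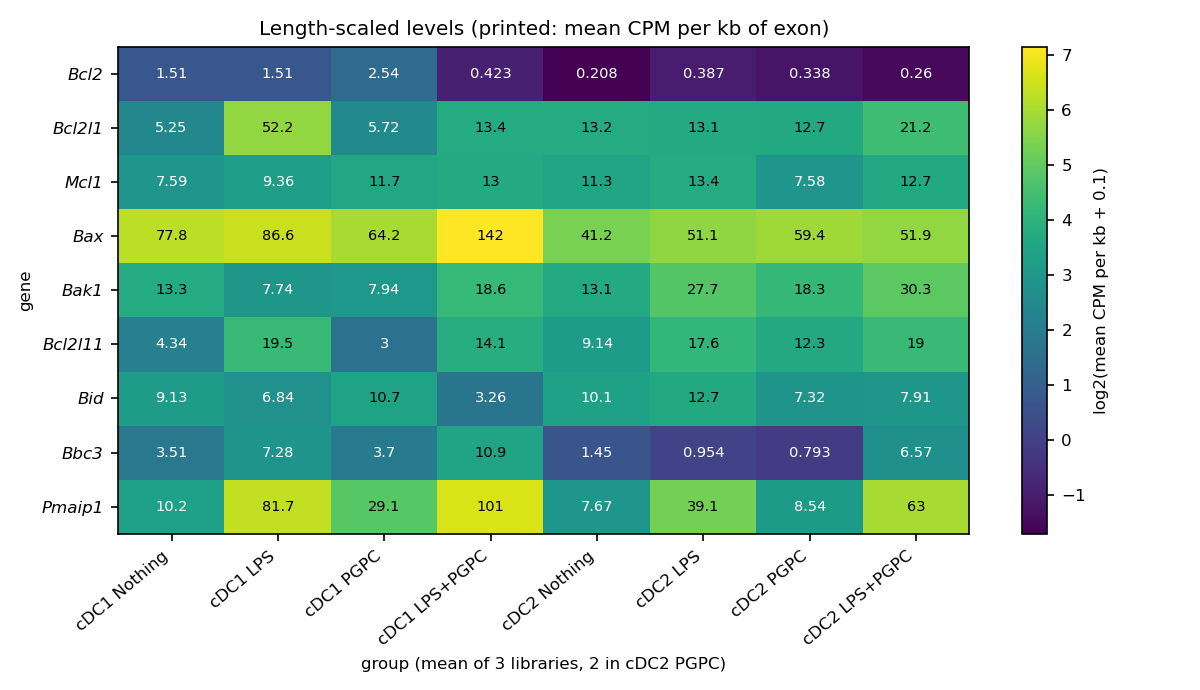
Mean level per kilobase of exon of the 9 genes (rows) in the 8 groups (columns), coloured on a log2 scale and printed as mean CPM per kb. Bax is at 41.2 or more in every group and Bcl2 at 2.54 or less, and Bcl2l1 and Pmaip1 go from 5.25 to 52.2 and from 10.2 to 81.7 CPM per kb between untreated cDC1 and cDC1 given LPS.

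Of the 9 genes, 3 rose and none fell in cDC1 given LPS, in a comparison in which 17.9% of all tested genes passed, 8.54% higher and 9.38% lower. The median of the 9 log2 differences was 0.28, beside -0.13 over all tested genes. In cDC2 given LPS, 1 rose and none fell (8.52% of all genes passed, 5.82% higher and 2.70% lower), with a median of 0.31 beside 0.03. LPS with PGPC against no treatment raised 3 and lowered 1 of the 9 in cDC1 (11.9% of all genes passed, 6.56% higher and 5.31% lower) and raised 1 in cDC2 (7.62%, 5.42% higher and 2.2% lower). The medians were 0.87 and 0.64, beside -0.08 and 0.07. Against PGPC alone it raised 3 and lowered 2 in cDC1 (16.4%, 9.78% higher and 6.61% lower) and raised 1 in cDC2 (6.64%, 4.43% higher and 2.21% lower).

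Added to LPS, PGPC lowered 1 of the 9 in cDC1, where 1.94% of all genes passed, 1.40% higher and 0.546% lower. In cDC2 edgeR called 0 of the 9 for that step, where 0.385% passed (0.281% higher and 0.104% lower), 1 of the 9 had an unadjusted p under 0.05 and DESeq2 called 0. For PGPC alone edgeR called 0 of the 9 in either kind of cell, beside 2.08% of all genes in cDC1 (0.578% higher and 1.5% lower) and 0.0160% in cDC2 (0.00802% in each direction). An unadjusted p under 0.05 was reached by 1 in cDC1, which DESeq2 also called, and by 0 in cDC2, where DESeq2 called 0. Comparisons of 1 kind of cell share libraries, untreated or treated, and are given side by side without a comparison of their calls. When the alum libraries and cDC2 given PGPC replicate 6 were fitted with the others, 36 libraries in all, 20 calls on the 9 genes were lost and 3 were kept, those of Bcl2l1 for LPS in cDC1, of Bid for both agents against PGPC in cDC1 and of Bbc3 for cDC2 against cDC1 with LPS.

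**Figure D3:**
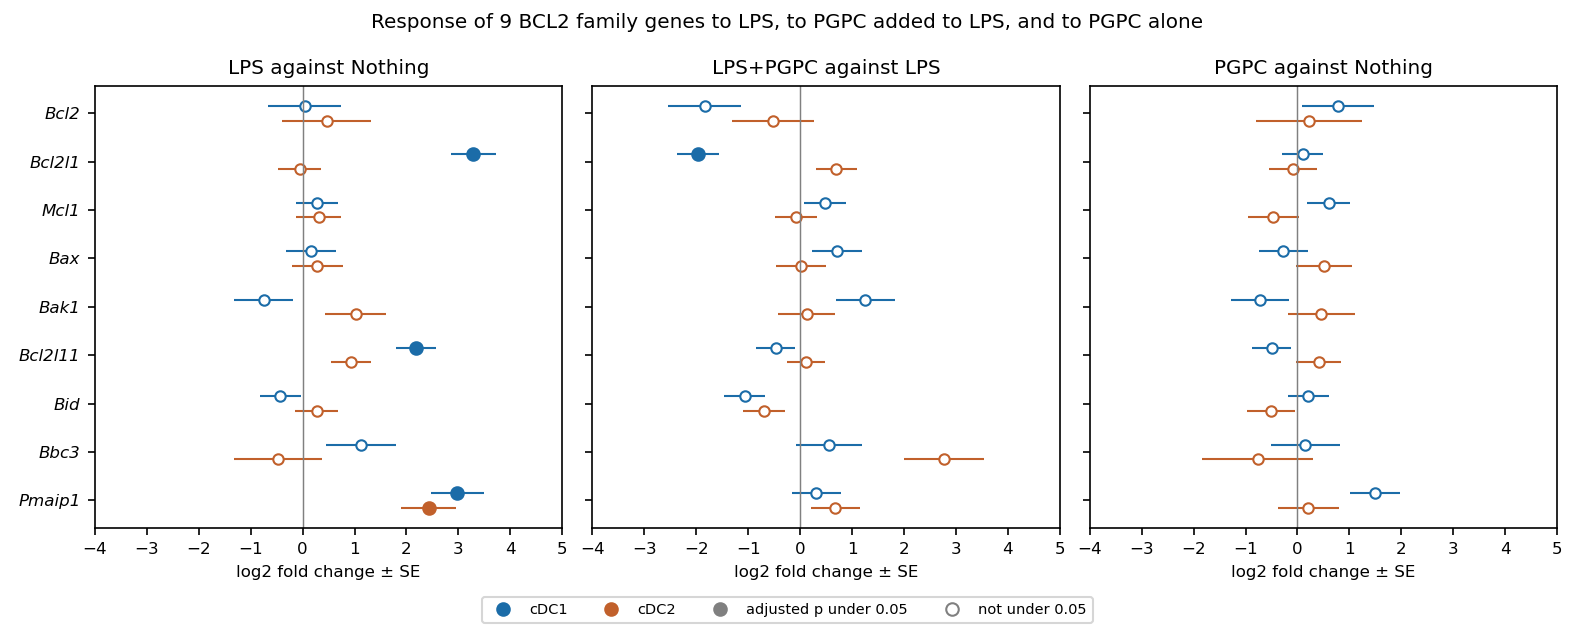
Log2 fold change ± SE of the 9 genes in cDC1 (blue) and cDC2 (orange) for LPS against no treatment, LPS with PGPC against LPS, and PGPC against no treatment. Filled points passed an adjusted p of 0.05. In the left panel Bcl2l1, Bcl2l11 and Pmaip1 are filled in cDC1 and Pmaip1 in cDC2, and in the middle panel Bcl2l1 in cDC1 is the filled point, at -1.97.

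Bcl2l1 (ENSMUSG00000007659.18, chr2:152780668-152831728, minus strand, GENCODE M21 on GRCm38) encodes BCL-XL, the protector that in many cells can replace BCL2. In untreated cDC1 its level was 17.1, 32.1 and 23 CPM in replicates 1, 2 and 3, and in cDC1 given LPS it was 404, 162 and 152 CPM. All 3 LPS libraries lay above all untreated ones, and replicate 1 was more than the sum of the other LPS libraries. The difference was 3.29 ± 0.43 on the log2 scale (adjusted p = 1.04e-05), and without LPS replicate 1 it was 2.68 (adjusted p = 0.000106). PGPC alone left Bcl2l1 at 22.9, 25.4 and 30.4 CPM, among the untreated values, with a log2 difference of 0.10 and an interval from -0.73 to 0.93. With LPS and PGPC together the libraries held 67.8, 62.3 and 54.1 CPM, above untreated cDC1 and below LPS without overlap. The difference from LPS alone was -1.97 ± 0.41 (adjusted p = 0.0107). It missed the threshold without LPS replicate 1 (-1.36, adjusted p = 0.118) and without LPS with PGPC replicate 3 (-1.88, adjusted p = 0.0618). With replicate 1 of all 3 treated cDC1 groups left out, the libraries of low ribosomal RNA share, it was -1.45 (adjusted p = 0.159), while the rise with LPS was still called. The rise with both agents over no treatment, 1.33 ± 0.41 (adjusted p = 0.0317), was lost without any 1 of LPS with PGPC replicates 1, 2 or 3 or untreated replicates 1 or 3 (1.16 to 1.41, adjusted p up to 0.117). That over PGPC alone, 1.22 ± 0.40 (adjusted p = 0.0373), was lost without any 1 of its 6 libraries (1.12 to 1.34, adjusted p up to 0.0994) and without a filter on low counts (adjusted p = 0.0579). The departure from additivity of LPS and PGPC in cDC1, the difference of both agents minus each alone plus none, was -2.07 ± 0.57 for Bcl2l1 (adjusted p = 0.0659, and 0.00632 with DESeq2). In that test of additivity edgeR called 0 of the 9 genes (1.28% of all genes, 0.907% above additivity and 0.369% under it), 4 of them had an unadjusted p under 0.05 and DESeq2 called 1.

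In cDC2, Bcl2l1 stood at 68.8, 71.8 and 41.2 CPM untreated (replicates 4, 5 and 6) and at 69.6, 52.3 and 57.7 CPM with LPS. These groups overlapped, and the log2 difference was -0.06 with an interval from -0.90 to 0.78. PGPC gave 61.4 and 55.1 CPM, and LPS with PGPC 152, 67.2 and 72.3 CPM, of which replicate 4 was the high library. Untreated cDC2 held more Bcl2l1 than untreated cDC1, by 1.35 ± 0.41 (adjusted p = 0.0374), and this call was lost without untreated cDC1 replicate 1 (1.18, adjusted p = 0.118) or 3 (1.30, 0.0890) and without untreated cDC2 replicate 4 (1.33, 0.0925) or 5 (1.22, 0.152). It was also lost without a filter on low counts (1.36, adjusted p = 0.0692). With LPS the order was the opposite, with cDC2 below cDC1 by -2.00 ± 0.41 (adjusted p = 0.00234), or -1.39 (adjusted p = 0.0451) without cDC1 given LPS replicate 1. The difference in LPS response between the kinds, -3.35, ran from -3.61 to -2.74 when single libraries were left out, with an adjusted p of at most 0.0248, and -2.74 was its value without cDC1 given LPS replicate 1. Of the 9 genes 1 passed in that comparison of responses, in which 1.34% of all tested genes passed (1.00% with a higher response in cDC2 and 0.337% with a lower one). The effect of adding PGPC to LPS on Bcl2l1 was 2.67 ± 0.57 higher in cDC2 than in cDC1, which did not pass (adjusted p = 0.162). It passed with DESeq2 (adjusted p = 0.00155), with no filter on low counts (2.65, adjusted p = 0.0199) and without cDC2 given LPS replicate 4 (2.79, adjusted p = 0.0402), while without cDC1 given LPS replicate 1 it was 2.06 (adjusted p = 0.553). In that comparison edgeR called 0 of the 9 (0.00802% of all genes, in the higher direction), with 2 at an unadjusted p under 0.05, and DESeq2 called 1.

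Bcl2 (chr1:106538178-106714274, minus strand), the founding protector of the family, was the lowest of the 9 per length. Its level was 22.3, 8.10 and 11.2 CPM in untreated cDC1, 18.6, 14.1 and 8.83 with LPS, 17.0, 25.1 and 27.7 with PGPC and 7.96, 1.14 and 2.53 with both. The libraries with both agents lay below all others of cDC1. Against PGPC alone Bcl2 fell by 2.58 on the log2 scale (SE 0.73, adjusted p = 0.0161). The call was lost without LPS with PGPC replicate 2 (-2.15, adjusted p = 0.0748) or replicate 3 (-2.35, 0.0749). Against LPS the difference was -1.84 ± 0.71 (adjusted p = 0.184) and against no treatment -1.80 ± 0.72 (adjusted p = 0.108), where leaving out LPS with PGPC replicate 1 gave -2.86 (adjusted p = 0.0221) and leaving out other single libraries gave values up to -1.32 (adjusted p up to 0.317). In cDC2 it lay between 0 and 5.63 CPM in all 11 libraries, with counts of 0 to 24, and the count of 0 in untreated replicate 6 came from a library in which 3 counts stand for 11.2 CPM. In untreated cells Bcl2 in cDC2 lay below cDC1 without overlap, by -2.39 ± 0.81 (adjusted p = 0.0607, and 0.0338 with DESeq2), and by -4.21 (adjusted p = 0.0321) without untreated cDC2 replicate 5 or -1.80 (adjusted p = 0.257) without replicate 4. With PGPC, Bcl2 was lower in cDC2 than in cDC1 by -2.94 ± 0.98 (adjusted p = 0.0499), lost without any 1 of cDC1 given PGPC replicates 2 or 3 or cDC2 given PGPC replicates 4 or 5 (-3.08 to -2.76, adjusted p up to 0.284). Median-ratio scaling and leaving out ribosomal and mitochondrial rows also ended that call (adjusted p = 0.0517 and 0.0523). Bcl2 is known to be expressed in B cells. B cell markers summed to 9.43 to 35.0 CPM in untreated cDC1 and 5.29 to 11.6 with LPS. They summed to 28.7 to 48.4 CPM with PGPC, 9.12 to 13.4 with both agents and 2.74 to 10.3 in cDC2 given PGPC. Plasmacytoid dendritic cell markers summed to 604 to 758, 251 to 426, 507 to 605 and 289 to 425 CPM in these cDC1 groups. In cDC2 given PGPC they summed to 60.3 to 98.1 CPM. Among them, Siglech in cDC1 was at 118 ± 37.1 CPM with PGPC, 1.66 ± 1.81 with both agents and 4.74 ± 2.89 with LPS. Mean Bcl2 in the cDC1 groups, in the order above, was 13.9, 13.8, 23.2 and 3.88 CPM. The part of either set of cells in the Bcl2 differences was not tested.

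Mcl1 (chr3:95658788-95663176, plus strand) encodes a protector with a short-lived protein. Its means ran from 25.9 CPM in untreated cDC1 and in cDC2 given PGPC to 45.7 CPM in cDC2 given LPS, and every neighbouring pair in the order of the 8 groups overlapped. Untreated cDC1 held 19.7, 25.6 and 32.5 CPM and cDC1 given LPS 24.2, 39.4 and 32.4 CPM, a log2 difference of 0.28 with an interval from -0.57 to 1.13. In cDC2 the same difference was 0.31, with an interval from -0.57 to 1.20. The interval leaves room for a change of about the size 1 on the log2 scale in either kind of cell. The cDC1 libraries with LPS and PGPC, at 39.8, 41.3 and 51.8 CPM, all lay above the untreated ones, but the difference of 0.76 ± 0.41 did not pass (adjusted p = 0.254).

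Bax (chr7:45461697-45466898, minus strand) encodes an effector that moves from the cytosol to the mitochondrion when released. It was at 141, 124 and 103 CPM in untreated cDC1 and at 132, 123 and 154 CPM with LPS, groups that overlapped, with a log2 difference of 0.16 and an interval from -0.82 to 1.14. With LPS and PGPC replicate 1 held 389 CPM and replicates 2 and 3 held 134 and 147 CPM. With PGPC replicate 1 held 173 CPM and the others 71.7 and 59.5 CPM. Both high libraries were those with the lowest ribosomal RNA share of their group, whose part was not tested. Without PGPC replicate 1, Bax with both agents stood 1.75 above PGPC alone (adjusted p = 0.0232), against 1.14 (adjusted p = 0.105) with all libraries and 0.52 (adjusted p = 0.511) without replicate 1 of both agents. In cDC2 Bax ran from 33.2 to 122 CPM over the 11 libraries. The libraries lay below those of cDC1 without overlap in untreated cells (75.2, 71.0 and 48.6 CPM), with LPS (52.7, 101 and 88.1 CPM) and with both agents (33.2, 90.4 and 122 CPM). The log2 differences were -0.88, -0.76 and -1.45, and none passed (adjusted p = 0.265, 0.388 and 0.0690). DESeq2 gave 0.0458 for the last, and it passed with no filter on low counts (-1.48, adjusted p = 0.0286) and without cDC2 given LPS with PGPC replicate 6 (-1.85, adjusted p = 0.0439). Without cDC1 given both agents replicate 1, the library at 389 CPM, it was -0.75 (adjusted p = 0.454).

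Bak1 (chr17:27019810-27029009, minus strand) encodes the effector that sits in the mitochondrial membrane at rest. It was at 44.6, 23.8 and 28 CPM in untreated cDC1 and at 18.2, 11.8 and 25.9 CPM with LPS, and at 30.0, 42.1 and 22.4 CPM in untreated cDC2 and 23.6, 99.2 and 77.3 CPM with LPS. The log2 differences pointed opposite ways, -0.75 ± 0.57 in cDC1 and 1.02 ± 0.58 in cDC2, but neither passed, and nor did their difference, 1.77 ± 0.81 (adjusted p = 0.331). With LPS, Bak1 in cDC2 stood 1.82 ± 0.58 above cDC1 (adjusted p = 0.0522), with the low cDC2 replicate 4 inside the cDC1 range. Without that library the difference was 2.23 (adjusted p = 0.0124), and without cDC2 replicate 5 it was 1.40 (adjusted p = 0.221). It passed with DESeq2 (1.95, adjusted p = 0.0126), with median-ratio scaling (0.0354), with no filter on low counts (0.0113) and with cDC2 given PGPC replicate 6 added (0.0457). In cDC1 given both agents replicate 1 was at 10.3 CPM and replicates 2 and 3 at 56.2 and 68.1 CPM, so that replicate 1 was the lowest of the group for Bak1 and the highest for Bax. Without replicate 1, Bak1 with both agents stood 1.74 above PGPC alone (adjusted p = 0.0236), against 1.24 (adjusted p = 0.137) with it and 0.80 (adjusted p = 0.448) without replicate 3.

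Bcl2l11 (ENSMUSG00000027381.16, chr2:128126038-128162547, plus strand) encodes BIM, the BH3-only protein that limits the life of many blood cells. In untreated cDC1 it was at 40.3, 29.4 and 34.8 CPM and with LPS at 177, 162 and 131 CPM, with no overlap. The rise was 2.18 ± 0.39 on the log2 scale (adjusted p = 0.000349) and stayed called without each library in turn (2.06 to 2.29). With both agents the libraries held 101, 142 and 96.5 CPM, a rise of 1.71 ± 0.39 over no treatment (adjusted p = 0.00399) and of 2.21 ± 0.39 over PGPC alone (adjusted p = 0.000309). PGPC alone gave 22.3, 10.4 and 39.6 CPM, which overlapped the untreated values. Adding PGPC to LPS changed the mean from 157 ± 23.7 to 113 ± 25.1 CPM, a log2 difference of -0.47 with an interval from -1.24 to 0.30.

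In cDC2, Bcl2l11 was at 72.6, 83.9 and 63.6 CPM untreated and at 159, 136 and 129 CPM with LPS, groups that did not overlap, and the difference of 0.93 ± 0.38 did not pass (adjusted p = 0.160). LPS with PGPC gave 206, 137 and 114 CPM, 1.04 ± 0.38 above no treatment (adjusted p = 0.107). The response to LPS was lower in cDC2 than in cDC1 by -1.25 ± 0.54, which did not pass (adjusted p = 0.299). With PGPC alone cDC2 held 88.8 and 109 CPM, more than cDC1 by 2.01 ± 0.42 (adjusted p = 0.00293), a call kept without each library in turn. In untreated cells cDC2 stood 1.10 ± 0.39 above cDC1 (adjusted p = 0.0724, and 0.0138 with DESeq2), and with LPS the kinds overlapped (-0.15, interval -0.92 to 0.62). In comparisons of cDC2 with cDC1, 1 of the 9 genes was higher and none lower in untreated cDC2 (10.2% of all tested genes passed, 4% higher and 6.17% lower). With LPS none was higher and 2 were lower (7.78%, 5.59% higher and 2.19% lower). With PGPC 1 was higher and 2 were lower (12%, 6.83% higher and 5.21% lower). With both agents edgeR called 0 of the 9 (7.08%, 4.59% higher and 2.50% lower), 2 had an unadjusted p under 0.05, and DESeq2 called 2, Bax lower and Bid higher in cDC2.

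Bcl2l1 and Bcl2l11, the protector and its BH3-only partner, both rose with LPS in cDC1. Over the 23 libraries their log2 CPM had a Pearson r of 0.78, the highest of the 36 pairs of the 9 genes. The points share libraries, depths and group means, and r is given as a description. The 250 bases before their first annotated starts, from RefSeq on GRCm38.p6, are printed because these members rose in cDC1 given LPS, with each CpG in capitals. Pmaip1, which rose there as well, had no window.
Bcl2l1 chr2:152831729-152831978 minus strand: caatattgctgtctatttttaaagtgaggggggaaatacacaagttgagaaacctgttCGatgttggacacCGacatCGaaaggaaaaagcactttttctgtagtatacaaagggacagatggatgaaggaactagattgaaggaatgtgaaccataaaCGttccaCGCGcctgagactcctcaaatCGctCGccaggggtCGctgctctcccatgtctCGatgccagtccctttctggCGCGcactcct
Bcl2l11 chr2:128125788-128126037 plus strand: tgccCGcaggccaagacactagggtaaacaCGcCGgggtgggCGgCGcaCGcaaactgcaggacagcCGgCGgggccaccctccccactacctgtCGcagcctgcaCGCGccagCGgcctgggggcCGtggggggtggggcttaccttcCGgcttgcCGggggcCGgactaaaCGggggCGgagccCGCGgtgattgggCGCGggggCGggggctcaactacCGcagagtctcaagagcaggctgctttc
The windows differ in composition. That of Bcl2l1 held 12 CpG and 47.6% G and C, that of Bcl2l11 24 CpG and 72% G and C, and over all 32851 RefSeq windows the medians were 6 and 52.4%. Windows of 300 bases (250 before and 50 after each start) were found for 8 of the 9 genes, 13 windows in all, and searched on both strands for an NF-kB site (GGGA, any base, TT, any base, CC, in 1.2% of all windows), an interferon response element (GAAA, any bases at 2 places, GAAA, 3.44%), a STAT site (TTC, any bases at 3 places, GAA, 8.3%) and the p53 decamer (8.36%). The interferon and STAT patterns can overlap each other. The only match among the members was AGGCAAGCTT, a p53 decamer whose first base lies at -201 from the start of Bax. For the other genes with a window, no match says only that these letters are not in it.

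Pmaip1 (chr18:66458533-66465565, plus strand) encodes NOXA, a BH3-only protein that binds MCL1. Its level in untreated cDC1 was 18 CPM in replicate 1 and 41.1 and 24.4 CPM in the others, with LPS 188, 285 and 196 CPM, and with both agents 298, 226 and 305 CPM. Neither treated group overlapped the untreated one. The rises were 2.98 ± 0.51 (adjusted p = 0.000189) and 3.29 ± 0.51 (adjusted p = 0.000102). PGPC alone gave 35.3, 77.2 and 126 CPM, of which replicate 1 lay among the untreated values, and the difference of 1.49 ± 0.48 did not pass (adjusted p = 0.104). It passed without PGPC replicate 1 (1.84, adjusted p = 0.0386), with DESeq2 (1.55, 0.0360) and without a filter on low counts (1.52, 0.0416), and it was 0.98 (adjusted p = 0.346) without PGPC replicate 3. Both agents stood above PGPC alone by 1.80 ± 0.48 (adjusted p = 0.0113), a call lost without PGPC replicate 1 (1.44, adjusted p = 0.0559), and above LPS alone by 0.31 (interval -0.65 to 1.27).

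Pmaip1 was the member that rose with LPS in cDC2 as well. There it was at 13.9, 22.7 and 26.2 CPM untreated, at 202, 65.2 and 52.8 CPM with LPS, of which replicate 4 was the high library, and at 194, 201 and 121 CPM with both agents. The rise with LPS was 2.43 ± 0.53 (adjusted p = 0.00294) and stayed called, at 1.58 and an adjusted p of 0.0482, without LPS replicate 4. With both agents it was 3.11 ± 0.53 over no treatment (adjusted p = 0.000449) and 2.90 ± 0.62 over PGPC alone (20.8 and 25.8 CPM, adjusted p = 0.00449). The last call was lost without cDC2 given PGPC replicate 4 (2.76, adjusted p = 0.117) or replicate 5 (3.06, 0.0552), which leaves 1 library in that group. The LPS response of Pmaip1 did not differ detectably between the kinds (-0.55 for cDC2 minus cDC1, interval -1.98 to 0.88). With LPS, Pmaip1 in cDC2 stood at -1.06 against cDC1 (adjusted p = 0.190), at -1.91 (adjusted p = 0.0109) without the high replicate 4 and at -0.66 (adjusted p = 0.600) without replicate 6. With PGPC, Pmaip1 was lower in cDC2 than in cDC1 by -1.79 ± 0.59 (adjusted p = 0.0488). This call was lost without any 1 of cDC1 given PGPC replicates 2 or 3 or cDC2 given PGPC replicates 4 or 5 (-1.93 to -1.28, adjusted p up to 0.272), with median-ratio scaling (adjusted p = 0.0528) and with ribosomal and mitochondrial rows left out (adjusted p = 0.0503). Mast cell or basophil and granulocyte markers summed to 50.5 to 77.8 and 259 to 1162 CPM in cDC1 given PGPC and to 0 to 1.64 and 0 to 0.548 CPM in cDC2 given PGPC, where the ribosomal RNA share was also higher than in cDC1 (52.3% and 61%, against 14.3% to 35.6%), and their part in that difference was not tested.

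Bid (chr6:120891930-120916853, minus strand) encodes the protein that carries the death receptor signal to the mitochondrion once caspase-8 has cut it. It was at 23.1, 42.8 and 31.3 CPM in untreated cDC1, 24.3, 21.2 and 27.4 with LPS, 55.0, 33.5 and 25.0 with PGPC, and 16.7, 9.32 and 8.71 with both agents, which lay below all other cDC1 libraries. Against PGPC alone it fell by 1.71 on the log2 scale (SE 0.41, adjusted p = 0.00483), a call kept without each library in turn and under each alternative processing (adjusted p at most 0.0395). Against no treatment it fell by 1.5 (SE 0.41, adjusted p = 0.0148), which was lost without LPS with PGPC replicate 2 (-1.37, adjusted p = 0.0647) or 3 (-1.34, 0.0766) or untreated replicate 2 (-1.25, 0.0776), and with no filter on low counts (-1.41, adjusted p = 0.0800). Against LPS the difference was -1.07 ± 0.40 (adjusted p = 0.170). Granulocyte markers also were at 259 to 1162 CPM with PGPC and at 1.16 to 70.1 CPM with both agents, beside a mean Bid of 37.8 and 11.6 CPM. They were at 47.2 to 199 CPM in untreated cDC1 and at 0 to 6.96 CPM with LPS, beside a mean Bid of 32.4 and 24.3 CPM. In untreated cDC2 they were at 0 to 1.61 CPM and mean Bid was 35.9 CPM. The part of granulocytes in the fall of Bid was not tested. In cDC2 Bid ran from 19.4 to 50.2 CPM, and the libraries with both agents (35.5, 29.3 and 19.4 CPM) lay below those with LPS (50.2, 44.2 and 41.1 CPM), with a difference of -0.69 ± 0.40 that did not pass (adjusted p = 0.754). With both agents Bid in cDC2 stood 1.28 ± 0.40 above cDC1 (adjusted p = 0.0535, and 0.00943 with DESeq2), and the difference passed without cDC1 given both agents replicate 1 (1.66, adjusted p = 0.0248) or cDC2 given both agents replicate 6 (1.49, 0.0361) and was 1.08 (adjusted p = 0.206) without cDC2 given both agents replicate 4. Reads of Bid and of Bcl2l13, which overlaps it on the other strand and was at 11.1 to 72.4 CPM, cannot be told apart in their shared exonic bases. The same holds for Bax and Gm45808 (up to 15 CPM), Bak1 and Ggnbp1 (up to 3.24 CPM) and Bcl2 and D630008O14Rik (up to 0.712 CPM).

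Bbc3 (chr7:16308393-16318205, plus strand) encodes PUMA, a BH3-only protein induced by p53. It was at 10.3, 9.36 and 2.72 CPM in untreated cDC1, 26.7, 8.82 and 10.9 with LPS, 13.9, 2.93 and 6.76 with PGPC and 34.8, 12.6 and 22.3 with both. The last group lay above the untreated one, by 1.68 ± 0.67 (adjusted p = 0.107), and above PGPC alone by 1.53 (adjusted p = 0.109), or by 2.21 (adjusted p = 0.0405) without PGPC replicate 1 and 1.17 (adjusted p = 0.284) without replicate 1 of both agents. In cDC2 its counts were small, 1 to 11 in the libraries that were untreated or given LPS or PGPC alone (0.539 to 3.74 CPM). With both agents it stood at 23.2, 7.02 and 11.6 CPM (156, 23 and 51 counts), above every other cDC2 library. The differences were 2.77 ± 0.77 from LPS (adjusted p = 0.143), 2.28 ± 0.76 from no treatment (adjusted p = 0.0701, and 0.0475 with DESeq2) and 3.06 ± 1.00 from PGPC (adjusted p = 0.0650). With LPS, Bbc3 was lower in cDC2 than in cDC1 by -2.93 ± 0.78 (adjusted p = 0.0179). That call was lost without cDC1 given LPS replicate 1 (-2.26, adjusted p = 0.137) or cDC2 given LPS replicate 5 (-2.44, 0.1) or 6 (-2.83, 0.0703).

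Other genes of the pathway were taken from lists, whose counts stand beside 8.54% of all tested genes higher and 9.38% lower with LPS in cDC1, and 5.82% and 2.70% in cDC2. In a list of 10 genes 1 call in a direction is near those shares and says nothing particular about the list. Bcl2a1a, Bcl2a1b and Bcl2a1d encode A1, a protector related to BCL2 and induced by NF-kB, and are near-identical copies whose reads the counting may have split. Their summed level was 2.57, 25.1 and 21.0 CPM in untreated cDC1, 543, 338 and 399 with LPS and 165, 604 and 598 with both agents. In cDC2 it was 26.0, 19.4 and 22.4 CPM untreated, 116, 441 and 244 with LPS and 52.8, 131 and 240 with both agents. All 3 copies rose with LPS in both kinds of cell, by 6.67 ± 1.08, 4.02 ± 0.75 and 5.59 ± 0.72 in cDC1 and by 6.05 ± 1.22, 2.96 ± 0.75 and 5.52 ± 0.81 in cDC2. Bcl2a1a had 4 counts in all in untreated cDC2, so its value there rests on few counts. Summed over the copies, the mean went from 16.2 to 426 CPM in cDC1 and from 22.6 to 267 CPM in cDC2. The other tested relative, Bcl2l2 (BCL-W), had 3 counts in all in untreated cDC1 and 20 with LPS, a ratio of 6.41 with a counting interval of 1.90 to 33.7. Of the 4 tested genes of this list the 3 copies rose and none fell with LPS in each kind of cell. The medians, 4.81 in cDC1 and 4.24 in cDC2, mostly reflect these copies, which may be 1 signal counted under 3 symbols.

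Of 5 other tested BH3-only and effector genes, 1 rose and 3 fell in cDC1 given LPS, beside 8.54% and 9.38% of all genes, with a median of -1.60. Bmf, a BH3-only gene, rose from 18.6 ± 3.81 to 72.7 ± 16.8 CPM (1.98 ± 0.47, adjusted p = 0.00403). Bad, whose product is switched off by survival signals, fell by 1.60 (adjusted p = 0.00695) and Bnip3l, a mitophagy receptor, fell by 1.94 (adjusted p = 0.000999). Bok, an effector relative, had 219 counts in untreated cDC1 and 0 with LPS, at least 12.5-fold lower against a floor of 3 counts per library. In cDC2 given LPS edgeR called 0 of the 5, beside 8.52% of all genes, 0 had an unadjusted p under 0.05 and DESeq2 called 0. Adding PGPC to LPS in cDC1 raised Bad from 12.1 ± 4.10 to 36.9 ± 6.81 CPM (1.58 ± 0.40, adjusted p = 0.0371), near its untreated 37.5 ± 0.943 CPM, and Bad departed from additivity of LPS and PGPC by 2.23 ± 0.56 (adjusted p = 0.0448).

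Downstream of the mitochondrion, among the apoptosome and caspase genes, Htra2, a mitochondrial protease, rose in cDC1 given LPS by 1.61 ± 0.51 (adjusted p = 0.0305), while Casp6 fell by 2.29 (adjusted p = 0.000348) and Casp2 by 1.99 (adjusted p = 0.00305). Of 5 inhibitors of apoptosis 2 rose in each kind, beside 8.54% of all genes in cDC1 and 5.82% in cDC2. They were Birc3, by 3.24 ± 0.44 in cDC1 and 2.93 ± 0.45 in cDC2, and Birc2, by 3.72 ± 0.60 and 2.60 ± 0.60. Birc5, a cell division gene, fell by 3.05 in cDC1 (adjusted p = 0.00280). Of 3 mitochondrial channel genes Vdac1 fell in cDC1 by 0.99 (adjusted p = 0.0435), beside 9.38% of all genes. In cDC2 edgeR called 0 of the 3, beside 8.52% of all genes, with 0 at an unadjusted p under 0.05 and 0 called by DESeq2.

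In the death receptor pathway 1 of 10 genes rose in cDC1 given LPS and 2 of 10 in cDC2, and none fell, beside 8.54% and 5.82% of all genes that rose. Cflar, which encodes the caspase-8 inhibitor FLIP, rose by 3.04 ± 0.51 in cDC1 and 3.10 ± 0.53 in cDC2 (adjusted p = 0.000169 and 0.000281). Mlkl, the executioner of necroptosis, rose in cDC2 from 9.25 ± 2.15 to 44.8 ± 11.6 CPM (2.36 ± 0.45, adjusted p = 0.000882). It was higher in cDC2 than in cDC1 with LPS by 2.12 ± 0.41 (adjusted p = 0.00148) and with both agents by 2.58 ± 0.41 (adjusted p = 0.000289). With both agents 4 of the 10 rose in cDC2 against no treatment, beside 5.42% of all genes. Among them were Casp8 (1.43 ± 0.35, adjusted p = 0.0102) and Ripk3 (1.95 ± 0.60, adjusted p = 0.0450). Of 10 upstream regulators, 2 rose and 1 fell in cDC1 given LPS, beside 8.54% and 9.38% of all genes (Rel by 2.10 ± 0.40, Mdm2 by 2.15 ± 0.53, and Foxo3, a factor that drives Bcl2l11 in other cells, fell by 1.52). In cDC2 given LPS 3 rose, Rel (2.44 ± 0.40), Rela (1.71 ± 0.45) and Ddit3 (2.35 ± 0.74). Foxo3 fell with PGPC alone in cDC1 as well, by 1.81 (adjusted p = 0.0375). Of 8 tested p53 targets, Cdkn1a (1.61 ± 0.50) and Ccng1 (1.25 ± 0.34) rose in cDC1 given LPS and none fell, while in cDC2 Cdkn1a rose (1.86 ± 0.51, with libraries that overlapped) and Sesn1 and Zmat3 fell by 2.43 and 1.82.

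**Figure D4:**
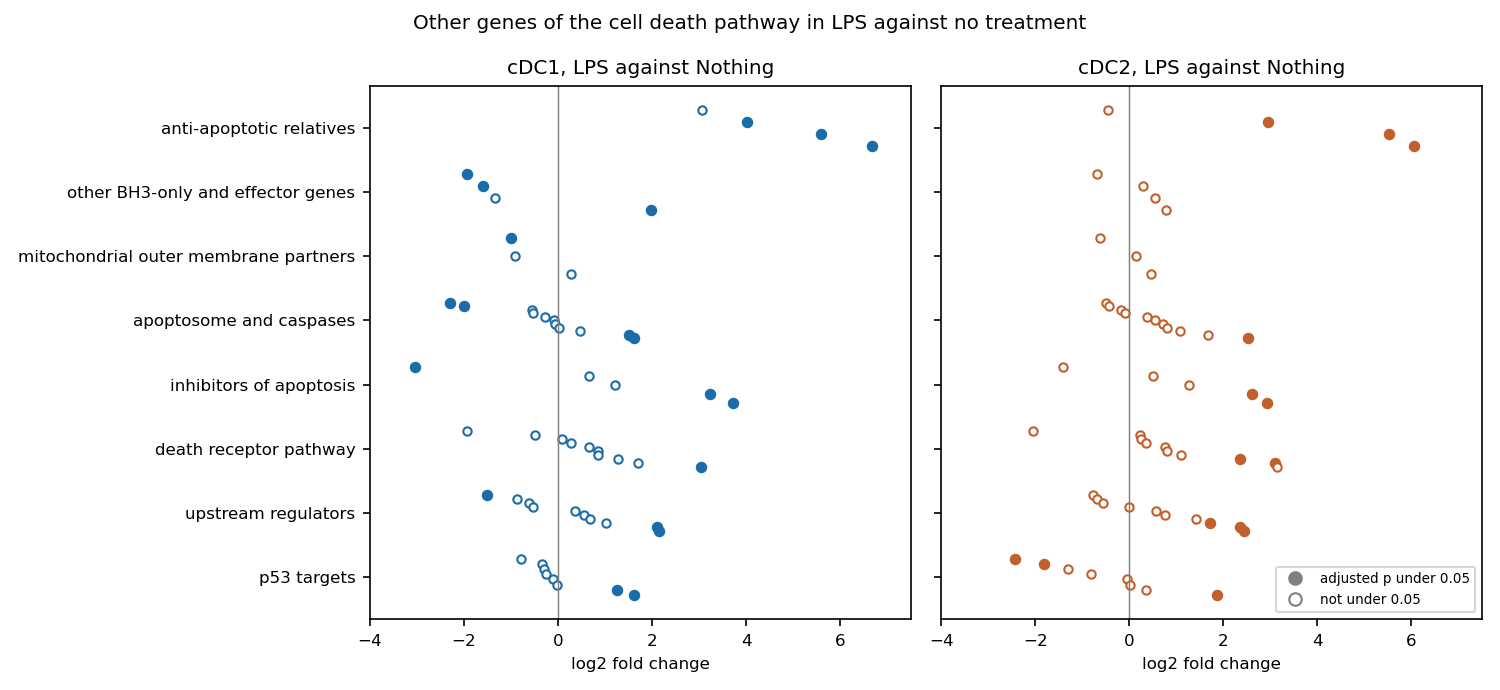
Log2 fold change of the tested genes of 8 pathway lists for LPS against no treatment in cDC1 (left) and cDC2 (right). Each point is a gene, filled where the adjusted p is under 0.05, and Bok is left out because it had no count in cDC1 given LPS. The Bcl2a1 copies are the 3 filled points of the top row, at 4.02 to 6.67 in cDC1 and 2.96 to 6.05 in cDC2.

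The genes whose log2 CPM over the 23 libraries was most like that of each member were found among the 8783 tested genes whose mean reached 5 CPM. For Bcl2l11 they were Fnbp1l (r = 0.95), Ifi204 (0.93) and Acod1 (0.92), for Bcl2l1 Hnrnpk, Actr2 and Tlr6 (0.85 each) and for Pmaip1 Idi1 (0.93), Cytip (0.90) and Ghitm (0.89). Bax was most like Mrps7 (0.95), Bak1 like Brd2 (0.86), Bcl2 like Prkd2 and Fgd2 (0.84 each), Bbc3 like Fam168b (0.82), and Mcl1 and Bid had no gene above 0.75 (Rbl1 and Gdpd1). Idi1, Mvd (0.81 with Bbc3) and Cyp51 (0.81 with Bbc3) encode enzymes of cholesterol synthesis, and Pmaip1 and Bbc3 had an r of 0.60 with each other. These correlations share libraries, depth and the 8 group means and carry no test.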

How the data were processed

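Bulk RNA was made into Smart-Seq2 and Nextera XT libraries and sequenced on a NextSeq, per the labels' protocols. The authors deposited 1 table of RSEM expected counts per gene symbol, with bcl2fastq 2.2 and GRCm38 named, per the submitters' processing notes. For RSEM the version, for alignment the tool, and the annotation used were not given in the sources used here. Of the nonzero values 21% were not whole, and each expected count was rounded to the nearest whole number for the tests. The kit does not mark strand, so reads of overlapping genes cannot be told apart. Depth and its precision open the report.

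The 23 libraries were fitted together in 8 groups with edgeR 4.0.16 (R 4.3.3, limma 3.58.1): TMM scaling, a filter by expression (minimum count 10, total 15), the robust quasi-likelihood test and Benjamini-Hochberg adjustment over all 12464 tested genes at 0.05, with 15 residual degrees of freedom. The alum libraries were not used in the comparisons, as set for these genes, nor was cDC2 given PGPC replicate 6, for its depth. The standard error is the log2 fold change over the root of its F statistic. Scripts were tested on simulated data.

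The 9 genes, the pathway and marker lists and the tests were chosen with earlier results of these data known. Named are the 9 genes in each comparison, from each pathway list up to 4 genes that passed with the smallest adjusted p, and the 3 genes most correlated with each of the 9, leaving out predicted, ribosomal and mitochondrial rows; one pathway gene that met this rule is not reported here. Alternatives were median-ratio scaling, DESeq2 1.42.0, no filter, 24 or 36 libraries, ribosomal and mitochondrial rows left out, a replicate block and each library left out. Gene positions are from GENCODE M21, and 52919 of 53299 symbols matched it.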

Additional observations from a re-analysis of the deposited data

Results flagged for a closer look

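The response of Bcl2l1 to LPS differed between the kinds of cell by -3.35 on the log2 scale for cDC2 minus cDC1 (edgeR, adjusted p = 0.00533), a test of the difference itself. The other values come from libraries outside the comparisons, are CPM without TMM scaling, and cover counting error only. The 12 alum libraries gave 108 values for the 9 genes, of which 94 were 0, 10 came from 1 to 3 counts and 4 from more. Pmaip1 reached 468 CPM in cDC1 given LPS and alum replicate 2 (1508 of 3219399 counts, exact 95% interval 445 to 493), against at most 37.5 CPM in untreated libraries of the same kind of cell, while the other libraries of that group held 0 and 0.659 CPM. Bcl2l11 reached 188 CPM in cDC1 given LPS and alum replicate 3 (286 of 1518412 counts, interval 167 to 211), against at most 30.9 CPM untreated, with 0 in the other libraries. Bax stood at 1051 CPM in cDC2 given PGPC replicate 6, which is 4 of 3805 counts, against at most 83.8 CPM untreated. No group had the 4 samples needed to test for a sample far from the others.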

How the results depend on the processing

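No call on the 9 genes reversed its direction under any alternative run. Counts below are of these 9 genes, called by edgeR unless stated, and those that moved by over 1.5 times are given. With median-ratio scaling they were 1 (0 in the main analysis) for cDC2 against cDC1 with both agents, 1 (3) with PGPC, and 1 (0) for the additivity of LPS and PGPC in cDC1. DESeq2 called 1 (0) for PGPC in cDC1, 2 (1) for both agents against no treatment in cDC2, 3 (1) for untreated cDC2 against cDC1, 2 (0) with both agents, 1 (0) for the difference between kinds in adding PGPC to LPS, and 1 (0) for additivity. Without a filter on low counts they were 1 (0) for PGPC in cDC1, 0 (1) for untreated cDC2 against cDC1, 1 (0) with both agents, and 1 (0) for the difference between kinds in adding PGPC to LPS. With cDC2 given PGPC replicate 6 added, 2 (1) were called for both agents against PGPC in cDC2. Smaller moves were 3 (2) for cDC2 against cDC1 with LPS under these 4 settings, 4 (3) with PGPC under DESeq2, and 3 (4) and 4 (5) for both agents against no treatment and PGPC in cDC1 without a filter. With ribosomal and mitochondrial rows left out they were 2 (1), 1 (0) and 1 (3) for cDC2 against cDC1 untreated, with both agents and with PGPC.

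Fitted with all 36 libraries, 20 of 153 results lost their call. The counts were then 1 (3), 0 (1), 0 (4) and 1 (5) in cDC1 for LPS, both agents against LPS, against no treatment and against PGPC. In cDC2 they were 0 (1) for LPS, 0 (1) for both agents against no treatment and 0 (1) against PGPC, and for cDC2 against cDC1 0 (1) untreated, 1 (2) with LPS and 0 (3) with PGPC. The difference in LPS response was then called in 0 (1), with Bcl2l1 at -3.28 (adjusted p = 0.472). The cause was not tested.

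Leaving out replicate 1 of the 3 treated cDC1 groups was chosen after seeing the data. It gave 1 (0) for PGPC in cDC1, 0 (1) for both agents against LPS and 3 (5) against PGPC, 2 (1) in cDC2 for both agents against no treatment and 2 (1) against PGPC, and for cDC2 against cDC1 2 (1) untreated, 1 (2) with LPS and 1 (0) with both agents.

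Leaving out each library in turn gave 0 to 1 called for PGPC in cDC1, 0 to 1 for both agents against LPS, 2 to 4 against no treatment and 3 to 5 against PGPC. It gave 0 to 1 for both agents against PGPC in cDC2, and for cDC2 against cDC1 0 to 1 untreated, 1 to 4 with LPS, 0 to 2 with both agents and 1 to 3 with PGPC. For the difference between kinds in adding PGPC to LPS it gave 0 to 1. Where it left 1 library of cDC2 given PGPC, that library is assumed to vary like the other groups.

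Correlations of deviations from group means cannot decide whether replicate numbers pair the libraries, because pairs of different numbers were not set beside them. Of 33 same-numbered pairs 8 had a correlation over 0.1 (-0.188 to 0.519), 6 of them among the 18 pairs of cDC1. The main fit used no replicate block, and cDC1 and cDC2 share no number. With a replicate block 116 of 117 results within a kind of cell kept their side of the threshold, and 2 (1) were called for both agents against PGPC in cDC2, where Bbc3 stood at 3.15 (adjusted p = 0.0481).

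Over all genes, LPS in cDC1 gave 2234 calls, and 597 with all 36 libraries. Adding PGPC to LPS in cDC1 gave 242, 720 with DESeq2, 585 without a filter, 8 with 36 libraries, 32 without the 3 low-ribosomal cDC1 libraries and 59 without cDC1 given LPS replicate 1. In cDC2 that step gave 48, 195 with DESeq2, 156 without a filter and 2 with 36 libraries. PGPC in cDC1 gave 259, 645 with DESeq2, 632 without a filter and 42 with 36 libraries. The difference in LPS response gave 167, 419 with DESeq2, 425 without a filter, 6 with 36 libraries, 75 without cDC1 given LPS replicate 1 and 444 without cDC2 given LPS replicate 4. Without single libraries the calls for cDC2 against cDC1 went from 1500 to 443 with PGPC (cDC2 given PGPC replicate 5), from 970 to 497 with LPS (cDC1 given LPS replicate 1), from 883 to 405 with both agents (cDC2 replicate 4) and from 1267 to 544 untreated (cDC2 replicate 5). In cDC2 they went from 827 to 163 for both agents against PGPC (PGPC replicate 4), from 950 to 544 against no treatment and from 1062 to 658 for LPS (untreated replicate 4). In cDC1 they went from 2234 to 1435 for LPS and from 159 to 33 for additivity (LPS replicate 1), and from 259 to 119 for PGPC (untreated replicate 1). Leaving out ribosomal and mitochondrial rows moved the median of all genes from -0.13 to -0.02 for LPS in cDC1, from 0.19 to 0.03 for the difference in LPS response and from -0.10 to 0.00 for untreated cDC2 against cDC1. The share of calls that were higher moved from 74.9% to 60.4% for the second and from 39.3% to 50.3% for the third. Median-ratio scaling moved it from 72.9% to 61.5% for adding PGPC to LPS in cDC2. Depth limits Bcl2 and Bbc3 in cDC2 most.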
